A study of Mus musculus with 5 samples.

Results

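The aminoacyl-tRNA synthetases are the enzymes that join each amino acid to its transfer RNA. Their genes were taken from the deposited gene table of 4T1 cancer cells in mouse lung: every symbol made of 1 capital letter followed by ars, ars1 or ars2, together with Farsa, Farsb and Eprs. This gave 37 of the 23771 genes in the table, of which 20 encode the enzymes of the cytosol and 17 encode enzymes named for the mitochondrion. The rule reads names and no measured value, though it was set with earlier results of these data known. Both groups are complete in the authors' Reactome gene sets, where all 20 cytosolic genes stand in the cytosolic charging set and all 17 mitochondrial genes in the mitochondrial one. Gars, Kars and Qars stand in both sets; mouse Gars and Kars each serve both compartments, and they were kept with the cytosolic enzymes.

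Lungs of female BALB/c mice were dissociated for 5' single-cell RNA sequencing 16 days after 25000 4T1 cells had been injected into a vein. This line comes from a mammary carcinoma of the mouse, and the injected cells carried the reporter CD90.1. From 6 weeks of age the mice had received 200 µL of tumor-secreted factors (TSF), a medium conditioned by resected tumors, or the same kind of medium without tumor (control medium, CM), 3 times per week for 3 weeks. Mice were 11 weeks old when lungs were taken. Each group was 1 library made from a pool of 3 mice, so the comparison is between a TSF library of 139 cancer cells and a CM library of 29 cancer cells, with no replicate check and no test of the treatment. Libraries of day 11 are not part of the cancer cell table.

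A synthetase recognises 1 amino acid and its matching transfer RNAs, and the charged transfer RNA then brings the amino acid to the ribosome. Cells hold separate sets for translation in the cytosol and in the mitochondrion, all encoded in the nucleus. In the cytosol several synthetases sit together in the multi-synthetase complex, held by the scaffold proteins Aimp1, Aimp2 and Eef1e1, and many cytosolic synthetase genes are targets of ATF4, the transcription factor of the integrated stress response.

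Levels are mean CP10k, the UMIs (unique molecular identifiers, 1 for each captured RNA molecule) of a gene per 10000 UMIs of a cell, averaged over the cancer cells of a library with cells at 0 included. A UMI counts a molecule whatever the length of the transcript, so levels of different genes can be set side by side without a correction for length. The share of a gene is the percent of cancer cells with at least 1 UMI, given with an exact Clopper-Pearson 95% interval, and a difference of shares with a 95% Newcombe interval; both cover counting error only. Ratios are given as log2 of the TSF level over the CM level with no pseudocount, for genes whose mean share over both libraries was at least 10%. This held for 9517 genes and for 33 of the 37 synthetases, which are all 20 cytosolic and 13 mitochondrial ones.

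The authors classed these cells as cancer cells, and the carcinoma markers read here were seen to different extents. Krt8 and Krt18, keratins of simple epithelium, had a UMI in 98.6% and 99.3% of the TSF cells and in 100% and 96.6% of the CM cells. Other markers were uneven: Epcam was seen in 68.3% of TSF and 27.6% of CM cells, Cdh1 in 25.2% and 6.90%, and CD90.1 in 34.5% and 6.90%. The 7 leukocyte markers had a UMI in at most 2.88% of TSF and 3.45% of CM cells, with Lyz2 and Csf1r at 0 in both, but their summed level was 1.01 CP10k in TSF and 0.00958 CP10k in CM. The fibroblast markers Dcn and Col1a1 summed to 0.575 and 0.0907 CP10k, with Dcn in 11.5% and 6.90% of cells. The endothelial markers Pecam1 and Cdh5 summed to 0.0955 and 0.0588 CP10k, with Pecam1 in 6.47% and 3.45% and Cdh5 in 4.32% and 10.3% of cells. Of the airway markers, Sftpc was at 0 in both and Scgb1a1 was seen in 0% of TSF and 3.45% of CM cells. Median depth was 26615 UMIs per cell in TSF and 27679 in CM, while cells under 10000 UMIs made up 10.1% of TSF (5.62 to 16.3%) and 27.6% of CM cells (12.7 to 47.2%). Of the 2 fine clusters that hold the cancer cells, the first held 61.2% of the TSF and 20.7% of the CM cells. The part of the marker levels, of the shallow cells and of the cluster mix in the values below was not tested. A single UMI in the shallowest cell of 973 UMIs adds 0.354 CP10k to the CM mean, against 0.0791 CP10k for the shallowest TSF cell, so low CM levels can rest on few cells. The cancer cells of both libraries shared 0 barcodes.

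The cytosolic synthetases were lower in the TSF library almost throughout. Of the 20 genes, 19 had a lower mean level in TSF than in CM, where 60.3% of all genes did, and the exception was Kars. A level at least 1.5-fold lower was found for 14 of the 20, beside 28.8% of all genes, and at least 1.5-fold higher for 0, beside 14.4%. Among all genes within the level range of the synthetases these backgrounds were 60.8% lower and 29.1% at least 1.5-fold lower, and 61.3% and 30.1% when Lars2, the member with the highest level, was left out of the range. The median log2 ratio of the 20 was -0.74 (range -1.61 to 0.27), where the median of all genes was -0.19. Summed over the 20 genes, cytosolic synthetases made 11.7 CP10k in TSF and 19.0 CP10k in CM, a ratio of 0.616. Relative to the median of all genes the cytosolic median was -0.55, and then 18 were lower, with Hars joining Kars on the other side. The count at least 1.5-fold lower depended on the scale: it was 9 after this centring, beside 20.9% of all genes, and 1 with a pseudocount of 1 CP10k, beside 2.09% of all genes.

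**Figure D1:**
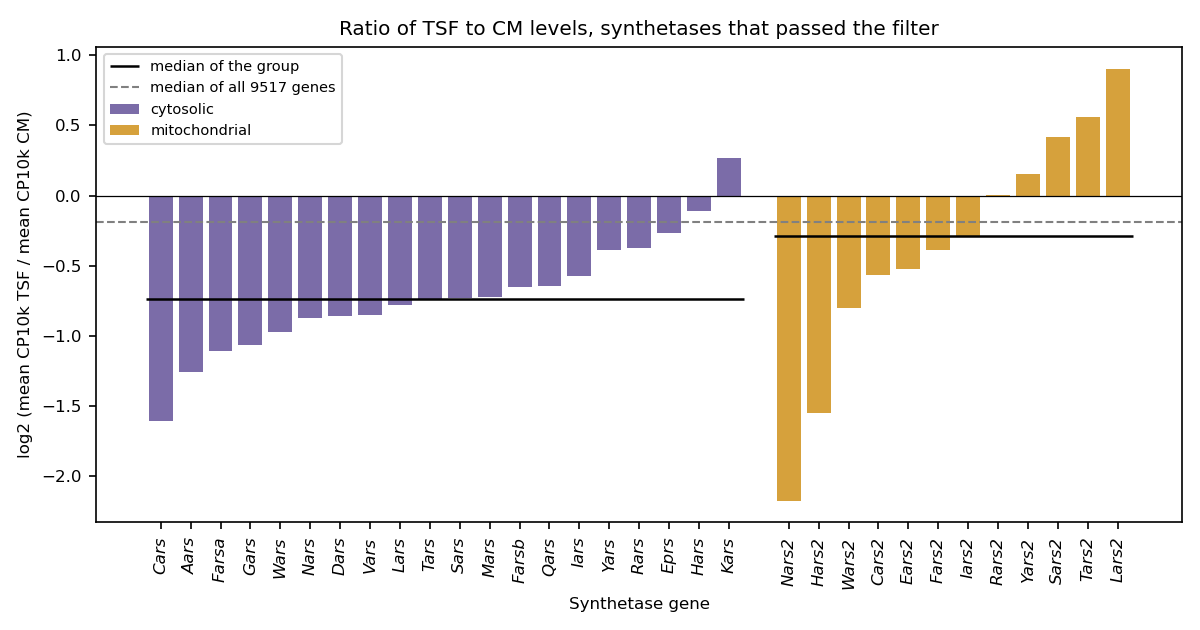
Log2 ratio of mean CP10k, TSF over CM, for synthetases that passed the 10% filter, by compartment, with lines for equal levels and for the median of all genes. Cytosolic genes run from -1.61 (Cars) to 0.27 (Kars) and mitochondrial genes from -2.18 (Nars2) to 0.91 (Lars2).

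The 4 cytosolic genes at least 2-fold lower in TSF, where 14.2% of all genes were, were Cars, Aars, Farsa and Gars. Cars, which charges cysteine (ENSMUSG00000010755, chr7:143557230-143600090, minus strand, GRCm38), was at 0.226 CP10k in TSF and 0.689 CP10k in CM, a log2 ratio of -1.61. It had a UMI in 57 of 139 TSF cells (41.0%, 32.7 to 49.7%) and 15 of 29 CM cells (51.7%, 32.5 to 70.6%). The level of Cars thus stood far apart between the libraries while the intervals of its shares overlapped.

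Aars, the alanine enzyme (ENSMUSG00000031960, chr8:111033144-111057664, plus strand), was at 0.356 CP10k in TSF and 0.852 CP10k in CM, a log2 ratio of -1.26. Its share went the other way, with 55.4% of TSF cells (46.7 to 63.8%) and 51.7% of CM cells (32.5 to 70.6%). The annotated transcripts of Aars share 1326 bases with Exosc6 on the same strand, so reads of the pair may not be separable and the values of Aars are uncertain.

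Farsa encodes a chain of the phenylalanine enzyme (ENSMUSG00000003808, chr8:84856989-84869257, plus strand). It was at 0.392 CP10k in TSF and 0.846 CP10k in CM, a log2 ratio of -1.11, and had a UMI in 59.7% of TSF cells (51.1 to 67.9%) and 82.8% of CM cells (64.2 to 94.2%). Level and share of Farsa were both lower in TSF. It was the cytosolic gene whose difference in shares (TSF minus CM, interval -35.8 to -4.07 percentage points) lay wholly below 0. Such intervals were not adjusted for the number of genes read, and the share of all genes with one off 0 was not counted. Farsb, the partner chain of Farsa, was at 0.447 and 0.704 CP10k. Its shares of 63.3% and 65.5% lay close together. Farsb is annotated over part of Sgpp2 on the opposite strand, and whether reads were counted by strand is not given in the sources used here.

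Gars, the glycine enzyme of both compartments (ENSMUSG00000029777, chr6:55038007-55079500, plus strand), was at 0.860 CP10k in TSF and 1.80 CP10k in CM, a log2 ratio of -1.07. Its shares were 77.7% of TSF cells (69.9 to 84.3%) and 93.1% of CM cells (77.2 to 99.2%), and the interval of their difference, -24.5 to 0.859 percentage points, reached just past 0. In CM the Gars level corresponds to about 131 UMIs over 29 cells.

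Most other cytosolic genes stood between 1.5 and 2-fold lower. Nars, the asparagine enzyme, had the highest cytosolic level in CM, 2.10 CP10k against 1.15 CP10k in TSF, and was seen in 96.6% of CM and 84.2% of TSF cells. Sars, which charges serine and also loads the transfer RNA for selenocysteine, was at 1.04 CP10k in TSF and 1.73 CP10k in CM with nearly equal shares of 83.5% and 82.8%. Wars, the tryptophan enzyme and a known target of interferon gamma, was at 0.177 and 0.348 CP10k and had the lowest cytosolic level in TSF. The remaining genes of this size were Dars, Vars, Lars, Tars, Mars, Farsb and Qars, with log2 ratios from -0.86 (Dars, aspartate) to -0.65 (Qars, glutamine).

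Among these, Dars was at 0.485 CP10k in TSF and 0.879 CP10k in CM. Vars, the valine enzyme, was at 0.743 and 1.34 CP10k. Lars, the cytosolic leucine enzyme, was at 0.433 and 0.743 CP10k. Shares were lower in TSF as well for these 3 genes, at 66.9% against 75.9%, 71.9% against 79.3% and 64.7% against 75.9%. Tars, for threonine, was at 0.629 and 1.06 CP10k with nearly equal shares of 71.9% and 72.4%. The values for Mars, which charges methionine for initiation and elongation alike, were 0.202 and 0.334 CP10k, and its annotation overlaps 68 bases of Ddit3 on the opposite strand.

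Smaller differences were found for Iars, Yars, Rars, Eprs and Hars. Iars, the isoleucine enzyme, was at 0.285 CP10k in TSF and 0.423 CP10k in CM, just inside the 1.5-fold line, but an annotated processed pseudogene, Gm4849, is 94.7% identical to it over 2251 bases, which makes its values uncertain. Eprs, whose protein carries the glutamate and proline activities in 1 chain, had the highest cytosolic level in TSF, 1.38 CP10k against 1.66 CP10k in CM. Hars, for histidine, was nearly level at 0.537 and 0.580 CP10k. Rars (arginine, log2 ratio -0.37) and Yars (tyrosine, -0.39) lay between.

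Kars was the cytosolic gene with the higher level in TSF. The lysine enzyme (ENSMUSG00000031948, chr8:111993443-112011323, minus strand) was at 0.696 CP10k in TSF and 0.577 CP10k in CM, a log2 ratio of 0.27. It was seen in 75.5% of TSF cells (67.5 to 82.4%) and 62.1% of CM cells (42.3 to 79.3%), and the interval of that difference, -3.64 to 32.6 percentage points, includes 0. The direction held under each of the 11 processing settings tried.

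**Figure D2:**
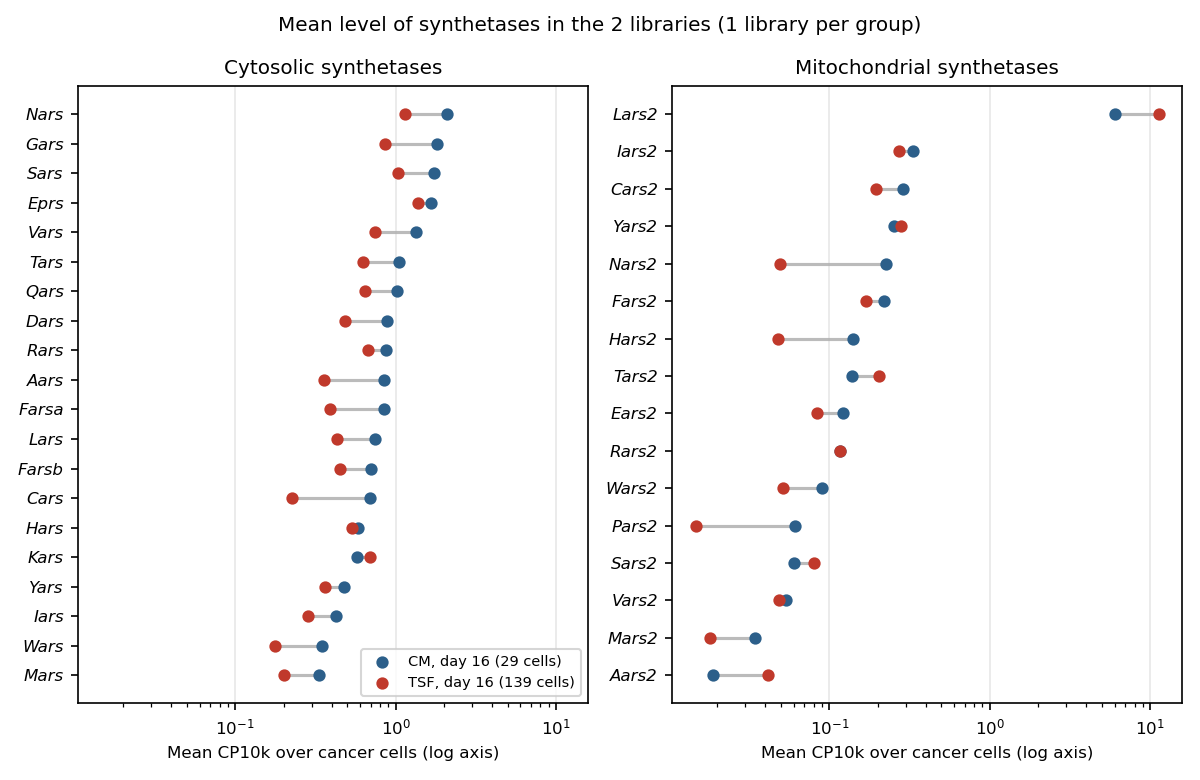
Mean CP10k of the synthetases in the TSF library (139 cells) and the CM library (29 cells), on a log axis, by compartment. Each point is 1 library; Lars2 stands above all other synthetases at 11.3 in TSF and 6.05 in CM, and among cytosolic genes the TSF point lies to the right for Kars only.

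Within the cytosolic genes, the order of subgroups depended on the measure. The 8 synthetases of the multi-synthetase complex (Dars, Eprs, Iars, Kars, Lars, Mars, Qars and Rars) had a median log2 ratio of -0.61, with 7 lower and 4 at least 1.5-fold lower. The 12 outside the complex had a median of -0.86, with all 12 lower, 10 of them at least 1.5-fold. Among all genes 60.3% were lower and 28.8% at least 1.5-fold lower. As sums, the complex members stood at 4.80 CP10k in TSF and 6.51 CP10k in CM, and those outside it at 6.92 and 12.5 CP10k, ratios of 0.738 and 0.553. All 4 genes at least 2-fold lower were outside the complex. By the level implied by the share of cells, described with the shares further on, the order turned, with medians of -0.60 for the complex and -0.47 outside it. No test of these differences was possible with 1 library per group.

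The 2 structural classes of synthetase, which differ in the fold of the catalytic domain, had similar medians by mean level but not by share. The 9 cytosolic class I genes had a median log2 ratio of -0.73 and the 10 class II genes of -0.80, leaving out Eprs, which holds an active site of each kind. By implied level the medians were -0.73 for class I and -0.35 for class II. Of the 13 cytosolic genes known as ATF4 targets, all 13 were lower in TSF and 10 at least 1.5-fold lower, beside 60.3% and 28.8% of all genes, with a median of -0.78. For the other 7, the median was -0.65, with 6 lower and 4 at least 1.5-fold lower. By implied level 11 of the 13 targets and 5 of the other 7 were lower, beside 63.9% of all genes. The order of the medians then turned, with -0.43 for the targets and -0.77 for the others.

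Promoter sequence was read for the members because a shared regulator is known for many of them. RefSeq promoters on GRCm38.p6, from 250 bases before to 50 bases after the gene start, matched 26 of the 37 genes, 12 cytosolic and 14 mitochondrial. They were searched on both strands for TGATGNAA, the composite element of C/EBP and ATF factors to which ATF4 binds. It was found in 5 of the 12 cytosolic promoters (41.7%) and in 0 of the 14 mitochondrial ones, where 1304 of all 32851 promoters of this length hold it (3.97%). The 5 genes were Aars, Gars, Iars, Tars and Yars. A match describes the letters of the window and is not a measured binding site. A 30-base window around 1 match of each gene is shown to set the element beside the values of its genes, on the strand of each gene, with the matched letters in capitals. Capitals that end in ATCA are the element read from the opposite strand.
Aars, chr8:111033840-111033869, plus strand: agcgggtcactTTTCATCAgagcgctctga
Gars, chr6:55037960-55037989, plus strand: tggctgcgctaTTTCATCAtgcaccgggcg
Iars, chr13:49682126-49682155, plus strand: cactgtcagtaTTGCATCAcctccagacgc
Tars, chr15:11399655-11399684, minus strand: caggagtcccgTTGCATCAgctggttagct
Yars, chr4:129189895-129189924, plus strand: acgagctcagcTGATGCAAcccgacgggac
The levels of these 5 genes were all lower in TSF, with log2 ratios from -1.26 (Aars) to -0.39 (Yars) and a median of -0.75. The 7 cytosolic genes whose promoter was read and lacked the element had a median of -0.65 (range -1.11 to 0.27), with 6 lower. Among all genes 60.3% were lower. The ranges of genes with and without the element overlapped over most of their length.

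The mitochondrial synthetases showed no common direction. Of the 13 that passed, 7 were lower in TSF and 6 higher, beside 60.3% lower and 39.7% higher among all genes, and their median log2 ratio was -0.29 (range -2.18 to 0.91). At least 1.5-fold lower were Nars2, Hars2 and Wars2, and at least 1.5-fold higher was Lars2. These 3 and 1 of 13 stand beside 28.8% and 14.4% of all genes. The split became 3 lower and 3 higher when ratios were centred on the median of all genes (20.9% and 20.3% of all genes), and 3 and 2 when ribosomal protein genes were left out of the totals (24.7% and 17.6%). The difference between the cytosolic and mitochondrial medians was -0.45.

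Lars2, the mitochondrial leucine enzyme (ENSMUSG00000035202, chr9:123366927-123462666, plus strand), had by far the highest level of the family in both libraries. It was at 11.3 CP10k in TSF and 6.05 CP10k in CM, a log2 ratio of 0.91, and nearly every cell had a UMI (97.8% of TSF and 96.6% of CM cells). Its ratio was higher than those of 92.3% of all genes that passed. Because of Lars2 the summed level of all 17 mitochondrial genes was higher in TSF, 13.1 CP10k against 8.24 CP10k. Without it the other 16 genes summed to 1.71 CP10k in TSF and 2.19 CP10k in CM, a ratio of 0.783, and the median log2 ratio of the 12 that passed the filter was -0.34. In both libraries Lars2 alone held more CP10k than the other 16 together. Whether all UMIs assigned to Lars2 came from its own transcript was not tested. Near copies were searched only from 500 aligned bases and 90% identity, so shorter matches were not looked for.

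The mitochondrial genes at least 1.5-fold lower rested on few CM molecules. So did genes that were higher in TSF, such as Sars2 and Tars2, at about 4.37 and 10.1 UMIs in CM. Nars2, for asparagine (ENSMUSG00000018995, chr7:96951505-97064758, plus strand), was at 0.0496 CP10k in TSF and 0.224 CP10k in CM, the lowest ratio of the family (log2 -2.18). It was seen in 21 of 139 TSF cells (15.1%, 9.60 to 22.2%) and 8 of 29 CM cells (27.6%, 12.7 to 47.2%), and its CM level corresponds to only about 16.3 UMIs. Hars2, for histidine, was at 0.0478 and 0.140 CP10k, in 14.4% of TSF cells (9.02 to 21.3%) and 31.0% of CM cells (15.3 to 50.8%). The interval of the difference in shares was -35.5 to -1.30 percentage points, again not adjusted for the number of genes read. Hars2 lies head to head with Hars and their annotated 5' ends overlap by 198 bases on opposite strands, so their values may not be fully separable. Wars2, for tryptophan, was at 0.0514 and 0.0898 CP10k.

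The rest of the mitochondrial set lay on both sides of the median of all genes, short of 1.5-fold. Cars2, Ears2, Fars2 and Iars2, for cysteine, glutamate, phenylalanine and isoleucine, had log2 ratios from -0.57 to -0.29, below the median of all genes. The shares of Ears2 and Iars2 were higher in TSF. Each of these genes overlaps another on the opposite strand, such as Rab3gap2 for Iars2 (2034 bases) and Naxd for Cars2 (984 bases). Their values may thus not be fully separable. Tars2 (threonine, 0.205 against 0.139 CP10k) and Sars2 (serine, 0.0803 against 0.0601 CP10k) were higher in TSF, with log2 ratios of 0.56 and 0.42. Their shares were nearly the same in both libraries, 33.8% and 34.5% for Tars2 and 12.9% and 13.8% for Sars2. By share and by implied level both genes were lower in TSF, with implied log2 ratios of -0.24 and -0.28. Yars2 (tyrosine) had 0.281 CP10k in TSF and 0.253 CP10k in CM and was seen in 50.4% and 37.9% of cells. Rars2, for arginine, had a log2 ratio of 0.01, which is nearly no difference.

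Aars2, Mars2, Pars2 and Vars2 did not reach the 10% mean share and were left out of the counts. Each was seen in 5 to 18 TSF cells and in 2 or 3 CM cells. Levels were 0.0414 and 0.0190 CP10k for Aars2, 0.0181 and 0.0343 for Mars2, 0.0147 and 0.0615 for Pars2, and 0.0486 and 0.0538 for Vars2, in TSF and CM. At this depth no difference could be read from them.

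Setting each cytosolic gene beside the mitochondrial gene for the same amino acid gave 13 pairs over 12 amino acids, since Farsa and Farsb both pair with Fars2. The cytosolic log2 ratio was below the mitochondrial one in 11 of the 13, with a median difference of -0.54. For leucine the values were -0.78 for Lars and 0.91 for Lars2, for threonine -0.75 and 0.56, and for serine -0.73 and 0.42. By implied level, described with the shares below, the cytosolic ratio was lower in 10 of the 13. Leucine stood apart there too (-0.87 and 0.45), but threonine (-0.32 and -0.24) and serine (-0.33 and -0.28) lay close together. By mean level the exceptions were histidine and asparagine, where the mitochondrial gene had the lower ratio. Both exceptions rested on the few CM molecules of Hars2 and Nars2, about 10.2 and 16.3 UMIs. Pairs among the 11 did so too. In CM Sars2 corresponded to about 4.37 UMIs, Wars2 to 6.53, Rars2 to 8.45 and Tars2 to 10.1.

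Shares of cells differed less between the libraries than mean levels did. Of the 20 cytosolic synthetases, 14 had a lower share in TSF, where 50.4% of all genes did. Aars, Eprs, Hars, Sars and Yars had a lower mean level but a higher share in TSF, a combination found in 16.1% of all genes. The median log2 ratio of the cytosolic shares was -0.13, with 0 genes at least 1.5-fold lower, beside 10.7% of all genes. Among mitochondrial genes 8 shares were lower and 5 higher.

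**Figure D3:**
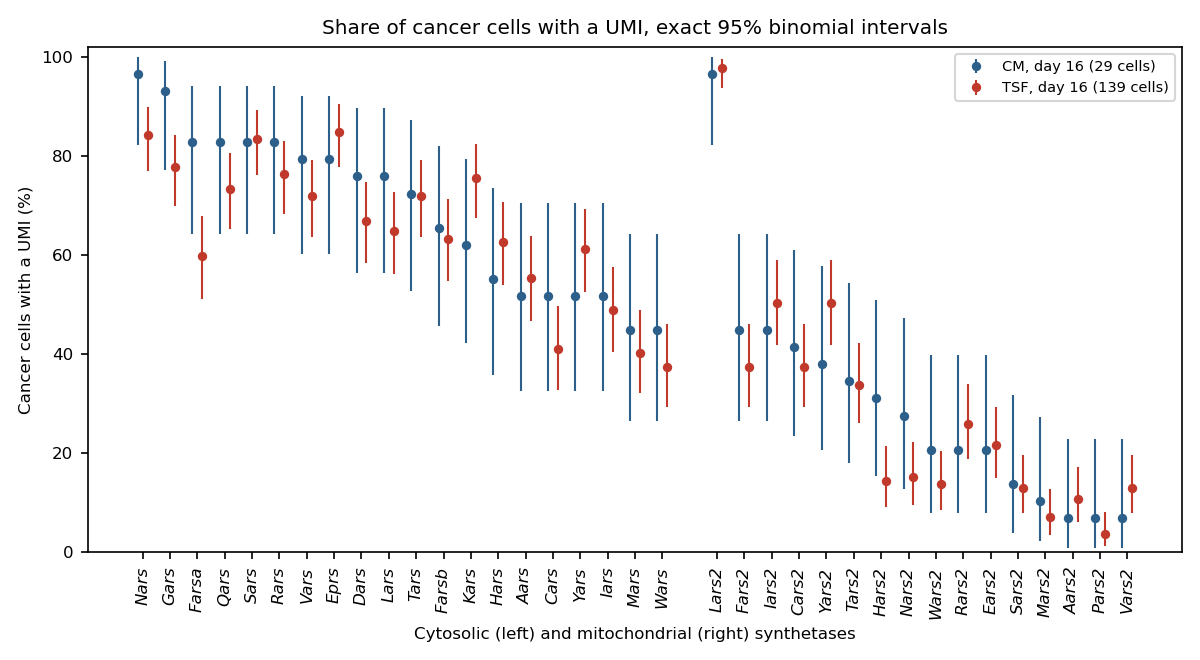
Percent of cancer cells with at least 1 UMI of the synthetases in the TSF library (139 cells) and the CM library (29 cells), with exact 95% intervals for counting error. CM intervals are wide; Farsa, at 59.7% and 82.8%, is among the few genes with well separated points.

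A share saturates as levels rise, so each was also turned into the level that would give it, taking the depth of every cell and assuming molecules fall at random on cells of equal content. By this implied level 16 of the 20 cytosolic genes were lower in TSF, where 63.9% of all genes were. Their median log2 ratio was -0.51, where that of all genes was -0.23. Nars (-2.15), Gars (-1.80) and Farsa (-1.57) had the lowest ratios. Kars, Yars, Hars and Eprs were higher, the last with a ratio of 0.02. For Cars the ratio was -0.73 by implied level and -1.61 by mean level, and for Aars -0.06 and -1.26. In CM the mean level of Aars would be expected to give a share of 77.8% and that of Cars 72.8%, while 51.7% was found for both. In TSF expected and found shares lay closer, at 59.0% and 55.4% for Aars and 44.6% and 41.0% for Cars. In CM these 2 genes thus had a UMI in fewer cells than their mean level would give under this model. That mean weighs cells equally, and a single UMI in the shallowest CM cell adds 0.354 CP10k to it. How the molecules were spread over the cells was not read, and the part of shallow cells or of the cluster mix was not tested. By implied level 9 of the 13 mitochondrial genes were lower, with a median of -0.24, close to the -0.23 of all genes, and Lars2 had a ratio of 0.45.

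**Figure D4:**
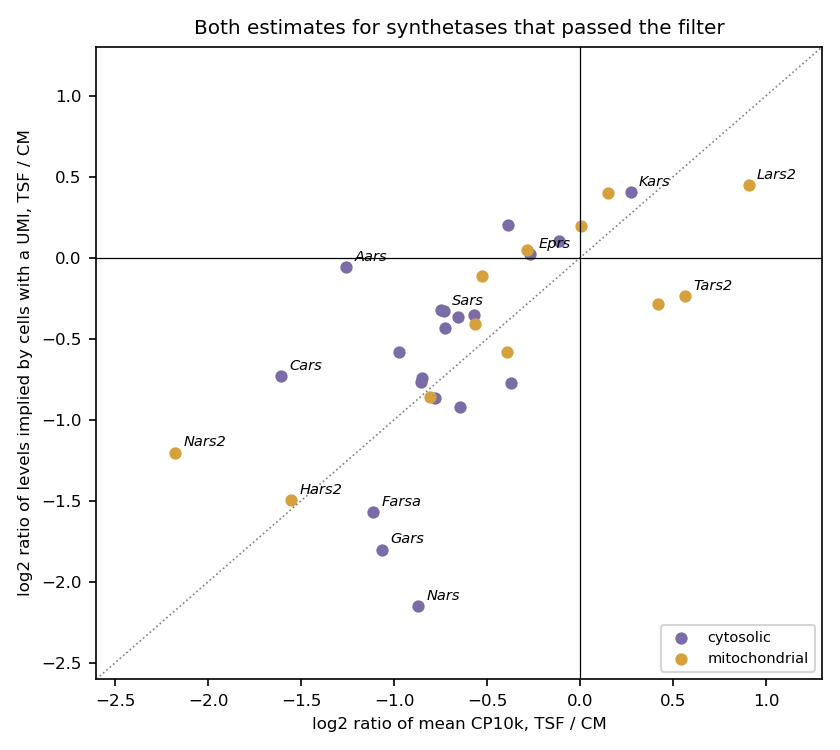
Log2 ratio TSF over CM by mean CP10k and by the level implied by the share of cells, for the synthetases that passed, 1 point per gene. Most cytosolic points are below 0 on both axes. Nars and Gars are lower by implied level (-2.15 and -1.80) and Cars and Aars lower by mean level (-1.61 and -1.26). The implied CM levels of Nars and Gars rest on the few CM cells without a UMI.

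Partners of the synthetases were mixed in direction. Of the 3 scaffolds of the multi-synthetase complex, Aimp1 was at 1.92 CP10k in TSF and 2.10 CP10k in CM, while Aimp2 (0.515 and 0.351 CP10k) and Eef1e1 (0.658 and 0.514 CP10k) were higher in TSF. Their median log2 ratio was 0.35, beside -0.61 for the synthetases they hold. The 4 genes that finish mitochondrial charging were split. Gatb (log2 1.41), a subunit of the amidotransferase that makes glutamine-charged transfer RNA, was higher in TSF. So was Mtfmt (1.06), which formylates the initiator, while Gatc (-0.56) and Qrsl1 (-0.01) were lower. The CM levels of Gatb and Mtfmt correspond to only about 2.06 and 4.52 UMIs, in 3 and 6 CM cells. By implied level the log2 ratios of Gatb and Mtfmt were 0.82 and 0.20. Of 8 other genes of transfer RNA charging, export or repair, 5 were lower, close to the 60.3% of all genes, and 4 at least 1.5-fold lower, beside 28.8%, with a median of -0.44. These 4 were Tarsl2, a second cytosolic threonine enzyme (0.0364 against 0.184 CP10k), Dtd1, Trnt1 and Pstk.

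Genes of the stress response that acts through ATF4 had lower mean levels in TSF as well. Of the 14 genes on the list of the integrated stress response, 12 passed the filter. All 12 were lower in TSF and 8 at least 1.5-fold lower, beside 60.3% and 28.8% of all genes. The median log2 ratio was -1.31, beside -0.19 for all genes. A listed gene that did not pass was higher in TSF (log2 2.31), with a UMI in 16 TSF cells and 1 CM cell. Atf4 itself was at 0.980 CP10k in TSF and 2.30 CP10k in CM and was seen in 77.0% and 89.7% of cells. Lower too were Ddit3 (log2 -1.84), Trib3 (-2.04) and the amino acid transporter chains Slc7a5 (-1.72) and Slc3a2 (-1.38). The enzymes of serine and asparagine synthesis differed less, with -0.24 for Psat1, -0.42 for Phgdh and -0.49 for Asns. Shares did not follow: 6 of the 12 were lower and 6 higher, beside 50.4% and 49.5% of all genes. The median by implied level was -0.28, where that of all genes was -0.23. Chac1, for example, was seen in 14.4% of TSF and 10.3% of CM cells while its mean was 0.121 and 0.586 CP10k.

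Wars was read beside the interferon gamma response, of which it is a known member. On that list 9 of 10 genes passed, and all 9 were at least 1.5-fold lower in TSF, beside 28.8% of all genes, with a median log2 ratio of -2.79 and a lower share for every gene. By implied level the median was -2.26 over 8 genes, since Psmb8 had a UMI in every CM cell and so has no finite implied level there. Irf1, a transcription factor of this response, was at 1.39 CP10k in TSF and 6.64 CP10k in CM. The log2 ratio of Wars, -0.98, was lower than the cytosolic median of -0.74 and well short of the median of this list.

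**Figure D5:**
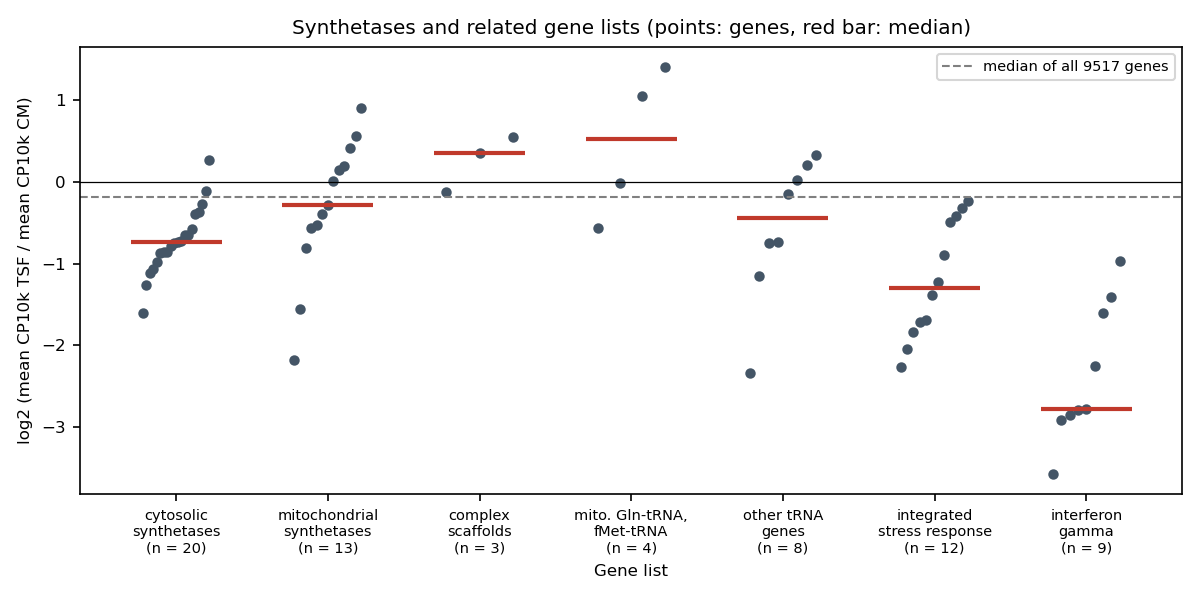
Log2 ratio of mean CP10k, TSF over CM, for the genes of each list that passed the filter, 1 point per gene, with the median of each list. Medians are -0.74 for cytosolic and -0.29 for mitochondrial synthetases, 0.35 for the scaffolds, -1.31 for the integrated stress response and -2.79 for the interferon gamma response.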

How the data were processed

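Lungs from 5 libraries were sequenced, and the cancer cells of 1 TSF and 1 CM library of day 16 are compared here. The authors aligned reads with Cell Ranger to the mouse genome mm10 (GRCm38.p6), to which they had added the CD90.1 sequence, corrected UMI counts for ambient RNA with SoupX, filtered cells and assigned cell classes by hand from clusters; cancer cells were identified at the first clustering by CD90.1, with no removal of doublets among them, and none was made here; Seurat 4.1.0 is named in the submitters' processing notes. The deposited gene table gives the authors' mean CP10k of each library, the number of cells with a UMI and the percent of cells with a UMI. Its columns of log2 fold changes, p-values, q-values and ranking scores, and a table of gene set enrichment scores, are the authors' own comparisons and were not used. The deposited cell table gives UMI counts, gene counts and the percent of mitochondrial UMIs of each cell; its 2 libraries outside the described samples were not used. Total depth of the cancer cells was 3937739 UMIs in TSF and 726849 in CM.

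Log2 ratios of mean CP10k were computed without a pseudocount for genes with a mean share of at least 10%. Intervals of shares were exact (Clopper-Pearson, 95%), and those of differences were Newcombe's. Implied levels were solved by a Poisson model over the depths of the cells, and the script was tested on simulated data. With 1 library per group no p-value was computed. All synthetases of the rule are named, with fixed lists of partner, stress response and interferon genes; members and lists were chosen with earlier results of these data known. Alternatives were other filters, pseudocounts of 0.1 and 1, totals without ribosomal protein genes, centring on the median of all genes, shares and implied levels in place of means, a 2-fold line, and leaving Gars and Kars out. Coordinates are from GENCODE on GRCm38, promoters from RefSeq on GRCm38.p6, and near copies from blastn 2.17.0. Intervals used scipy 1.17.1, tables pandas 2.3.3 and numpy 2.4.6, and plots matplotlib 3.10.9, all under Python 3.11.15. A few genes and sequences are not reported here by name, in the text or the plots by gene, but counts and medians include them.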

Additional observations from a re-analysis of the deposited data

How the results depend on the processing

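No paired analysis was possible because each group had 1 library. More cytosolic genes were lower than higher, and the difference between the cytosolic and mitochondrial medians (-0.45) stayed below 0, under each alternative run. The settings below moved a value, and the cause was not tested unless it follows from the setting itself. Without a filter, 5 mitochondrial genes were at least 1.5-fold lower and 2 higher, beside 32.2% and 16.5% of all genes. With a filter of 10% in either library 2 were higher, beside 15.4% of all genes. At a mean share of 25%, 3 mitochondrial genes were lower and 3 higher, beside 61.5% and 38.5% of all genes. Here 0 were at least 1.5-fold lower, beside 26.4%. The mitochondrial median was then -0.068 and the difference -0.67. A pseudocount of 1, which shrinks low levels, gave a cytosolic median of -0.29 and a mitochondrial median of -0.049, a difference of -0.24. At least 1.5-fold lower were then 1 cytosolic and 0 mitochondrial genes, beside 2.09% of all genes. Totals without ribosomal protein genes gave 2 mitochondrial genes at least 1.5-fold higher, beside 17.6% of all genes. Centring on the median of all genes gave 2 cytosolic genes higher, a median of -0.55 and 9 at least 1.5-fold lower, beside 20.9% of all genes. For the mitochondrial set it gave a median of -0.10 with 3 at least 1.5-fold higher, beside 20.3%. By shares 6 cytosolic genes were higher, beside 49.5% of all genes. The medians were -0.13 and -0.039, and the difference was -0.091. By shares 0 cytosolic genes were at least 1.5-fold lower and 0 mitochondrial genes 1.5-fold higher, beside 10.7% and 9.2% of all genes. In this measure Aars (0.10) and Sars (0.012) were higher in TSF. The implied level and the range of levels without Lars2 were added after seeing the data. By implied level 4 cytosolic genes were higher, the median was -0.51, 9 were at least 1.5-fold lower, 0 mitochondrial genes were 1.5-fold higher, and the difference was -0.27. At a 2-fold line 4 cytosolic genes were lower and 0 mitochondrial genes higher, beside 14.2% and 6.4% of all genes. Leaving out Gars and Kars left 0 cytosolic genes higher. Depth limits the CM library: a gene with a UMI in 0 of its 29 cells allows a share of cells with a UMI of up to 10.3% (3 counts of 29), and low mitochondrial levels rest on few UMIs.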
